A study of Rattus norvegicus with 12 samples.

Results

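The P2 receptors are the cell-surface receptors for extracellular ATP and related nucleotides, and 10 of their genes are described here in rat dorsal root ganglia after 2 chemotherapy drugs. They were taken by gene symbol, P2rx2, P2rx3, P2rx4, P2rx5, P2rx6, P2rx7, P2ry1, P2ry2, P2ry12 and P2ry14, from 20152 genes listed over 12 libraries. All 10 were listed in every library, and all 10 passed the filter on low counts that left 15809 genes to test. P2X receptors are ATP-gated cation channels, each built from several subunits, and P2Y receptors are G protein-coupled receptors for ATP, ADP, UTP or UDP sugars. In sensory ganglia, P2rx3 is the channel through which ATP released by damaged tissue excites nociceptors, above all the non-peptidergic ones, and it can combine with P2rx2. P2rx4, P2rx7 and P2ry12 are best known from macrophages, microglia and glia, where they have been tied to pain after nerve injury.

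The study asked how the transcriptome of rat dorsal root ganglia, which hold the cell bodies of sensory neurons along the spine, differs between neuropathic pain induced by oxaliplatin and by paclitaxel. There were 4 libraries from rats given oxaliplatin, a platinum compound that binds DNA, at 2.4 mg/kg in a glucose solution, 4 from rats given paclitaxel, which stabilises microtubules, at 2.0 mg/kg from a DMSO stock diluted with saline, and 4 from rats given vehicle. Both drugs went into the peritoneal cavity. The labels name no solvent for the vehicle group and no strain, sex, age, number of doses or time of collection, and a difference from vehicle cannot be told apart from an effect of a solvent that this group did not receive. Nor do they say that replicates were separate animals, so the p-values reflect only the scatter of these libraries, part or all of which may be technical.

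Libraries held 17008728 to 17615736 estimated counts. All 16 neuron markers looked for were found in the libraries and none was at 0 throughout. No marker found of any other cell type list was at 0 throughout either, so this check cannot identify the tissue. Marker lists of other cells differed between groups. Summed over 21 macrophage markers, CPM (counts scaled to library size) was 580 to 701 in oxaliplatin, 243 to 478 in paclitaxel and 530 to 898 in vehicle libraries. Over 14 erythroid markers it was 3814 to 12993 in oxaliplatin, 866 to 2325 in paclitaxel and 1838 to 3469 in vehicle libraries, and over 16 neuron markers 11851 to 14413, 15659 to 20122 and 13728 to 15364 in the same order. In bulk tissue, fewer cells of a type and less RNA per cell cannot be told apart.

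The promoters of P2rx3 and P2rx7, members that changed between groups, are given here as in RefSeq in assembly GRCr8, 250 bases before each start, 5′ to 3′ on the gene's strand. The first P2rx3 window is chr3:90529310-90529559 and the second chr3:90531316-90531565, both on the minus strand, with starts 2006 bases apart, and the P2rx7 window is chr12:39594923-39595172 on the minus strand. Capitals mark matches on either strand to the GC box (GGGCGG), the CCAAT box (CCAAT), the TATA box (TATAAA), a RUNX site (TGTGGT), the core of a cAMP response element (TGACG), the core of a PU.1 site (GAGGAA) or an E-box (CAGCTG).
P2rx3 promoter 1: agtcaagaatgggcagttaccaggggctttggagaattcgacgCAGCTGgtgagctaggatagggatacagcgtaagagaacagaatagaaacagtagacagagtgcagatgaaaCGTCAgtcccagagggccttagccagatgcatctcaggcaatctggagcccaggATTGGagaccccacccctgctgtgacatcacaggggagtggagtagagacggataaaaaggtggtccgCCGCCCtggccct
P2rx3 promoter 2: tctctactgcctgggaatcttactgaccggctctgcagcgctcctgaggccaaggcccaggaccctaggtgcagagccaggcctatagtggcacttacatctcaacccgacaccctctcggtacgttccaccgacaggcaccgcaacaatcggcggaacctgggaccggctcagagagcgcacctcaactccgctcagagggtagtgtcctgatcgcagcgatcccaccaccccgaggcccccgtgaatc
P2rx7 promoter 1: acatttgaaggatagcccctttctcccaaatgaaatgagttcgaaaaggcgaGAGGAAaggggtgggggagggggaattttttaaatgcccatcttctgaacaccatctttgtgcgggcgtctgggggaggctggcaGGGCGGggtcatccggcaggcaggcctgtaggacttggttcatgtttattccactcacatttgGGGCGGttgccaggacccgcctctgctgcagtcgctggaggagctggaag
The first P2rx3 window held 4 of the 7 motifs, each once, which were a GC box 13 bases before the start, a CCAAT box at 81, the core of a cAMP response element at 135 and an E-box at 207. The second P2rx3 window held none of them. The P2rx7 window held GC boxes at 113 and 50 bases and a PU.1 core at 198 bases before its start. Of 33469 RefSeq promoter windows of this length, 30.5% held a GC box, 34.0% a CCAAT box, 12.9% a TATA box, 14.5% a RUNX site, 18.2% a TGACG, 23.3% a PU.1 core and 11.97% a CAGCTG, so each is common and a match is a description of letters only.

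On the length-scaled FPKM values (fragments scaled to gene length and library size), P2rx3 stood far above every other P2 receptor. Its mean was 176 ± 8.12 FPKM in oxaliplatin, 208 ± 12.6 in paclitaxel and 216 ± 14.97 in vehicle libraries (SD, n = 4 each). It made up 67.8% to 71.6% of the summed FPKM of the 10 genes in oxaliplatin, 71.1% to 76.5% in paclitaxel and 71.7% to 75.6% in vehicle libraries. P2rx4 came next in all 3 groups, at 16.8 ± 4.88 FPKM in oxaliplatin, 19.0 ± 8.08 in paclitaxel and 19.8 ± 3.23 in vehicle libraries.

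In the vehicle group the order below P2rx4 was P2ry1 (12.6 ± 2.06 FPKM), P2rx6 (10.95 ± 1.004), P2ry2 (9.21 ± 1.58), P2rx7 (8.10 ± 2.17), P2rx2 (5.41 ± 0.544), P2rx5 (5.25 ± 0.210), P2ry12 (2.43 ± 0.519) and P2ry14 (1.76 ± 0.536). Of the neighbours in that order, P2rx3 and P2rx4, P2rx4 and P2ry1, and P2rx5 and P2ry12 did not overlap, while the other 6 neighbouring pairs did. P2rx7 stood in the sixth place in vehicle, in the third place in oxaliplatin (12.2 ± 1.06 FPKM) and in the seventh place in paclitaxel (6.36 ± 2.14 FPKM). In oxaliplatin the P2rx7 range overlapped those of P2rx4 above and P2ry2 below it.

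**Figure D1:**
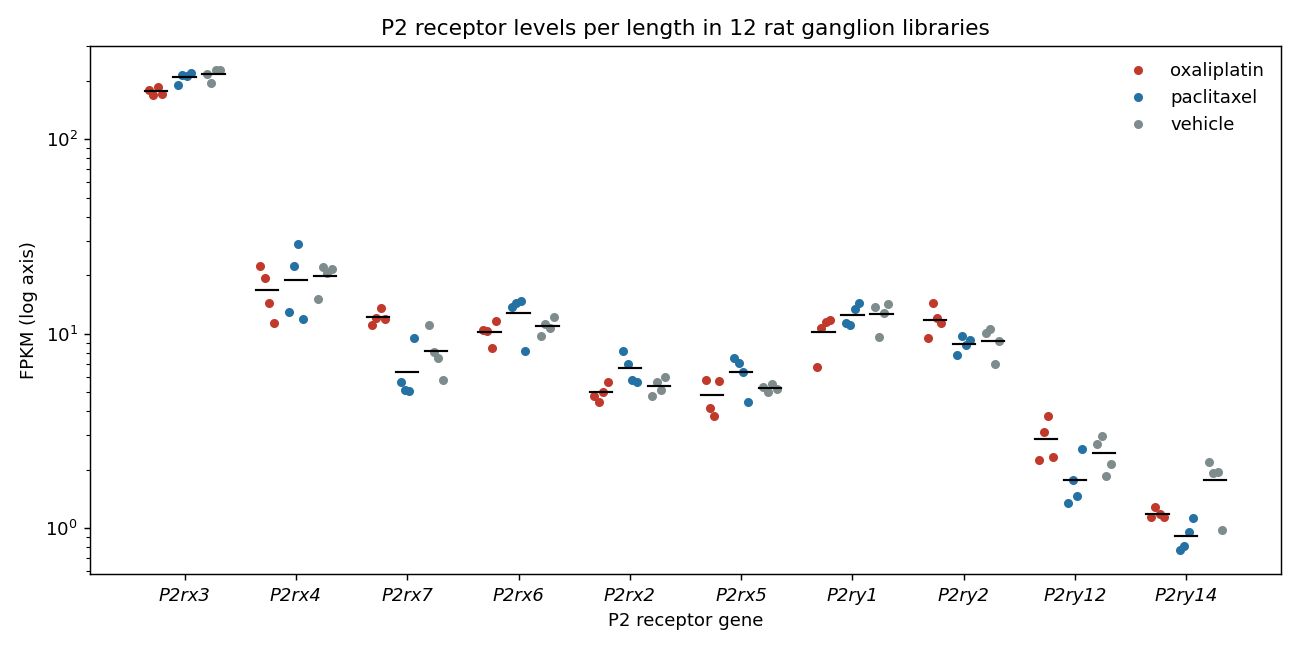
FPKM of the 10 P2 receptor genes on a log axis, 1 point per library and a bar at the mean of each group (oxaliplatin, paclitaxel, vehicle; n = 4 each). P2rx3 lies between 168 and 227 FPKM in all 12 libraries, above every value of the other 9 genes, of which the highest is 28.9 FPKM for P2rx4 in a paclitaxel library.

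Between groups, P2rx3 was lower in oxaliplatin ganglia than in either other group, and P2rx7 and P2rx2 separated oxaliplatin from paclitaxel in opposite directions. In oxaliplatin against vehicle 1 of the 10 genes, P2rx3, was called, as lower, at an adjusted p under 0.05 over all genes in edgeR, where 1.76% of all tested genes were called in either direction (1.05% higher, 0.708% lower). Of the 10, 5 had an unadjusted p under 0.05, beside 17.2% of all genes, and their median log2 fold change over all 10 was -0.15, beside 0.01 over all genes tested. In paclitaxel against vehicle 0 of the 10 were called in edgeR, where 0.120% of all genes were called (0.0822% higher, 0.0380% lower). Of the 10, 3 had an unadjusted p under 0.05 (P2rx2, P2ry12 and P2ry14), beside 17.1% of all genes. DESeq2 and limma on log2(FPKM + 1) called 0 of the 10. Voom with quality weights called 3, and also called far more of all genes than edgeR, as given in the closing section. The median was -0.01, as over all genes. Between the drugs, oxaliplatin stood higher than paclitaxel for P2rx7 and lower for P2rx3 and P2rx2, 3 of 10 called in edgeR against 11.3% of all genes (6.60% higher, 4.71% lower). There 8 of the 10 had an unadjusted p under 0.05, beside 29.4% of all genes, and the median was -0.28, beside 0.00 over all genes. The comparisons share libraries, so their values are not independent of each other.

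The CPM ranges of the groups did not overlap for 2 of the 10 genes in oxaliplatin against vehicle (P2rx3 and P2rx7), for 3 in oxaliplatin against paclitaxel (P2rx3, P2rx7 and P2rx2) and for 0 in paclitaxel against vehicle. Over all genes tested, 11.3%, 15.3% and 6.96% had ranges that did not overlap in those comparisons.

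**Figure D2:**
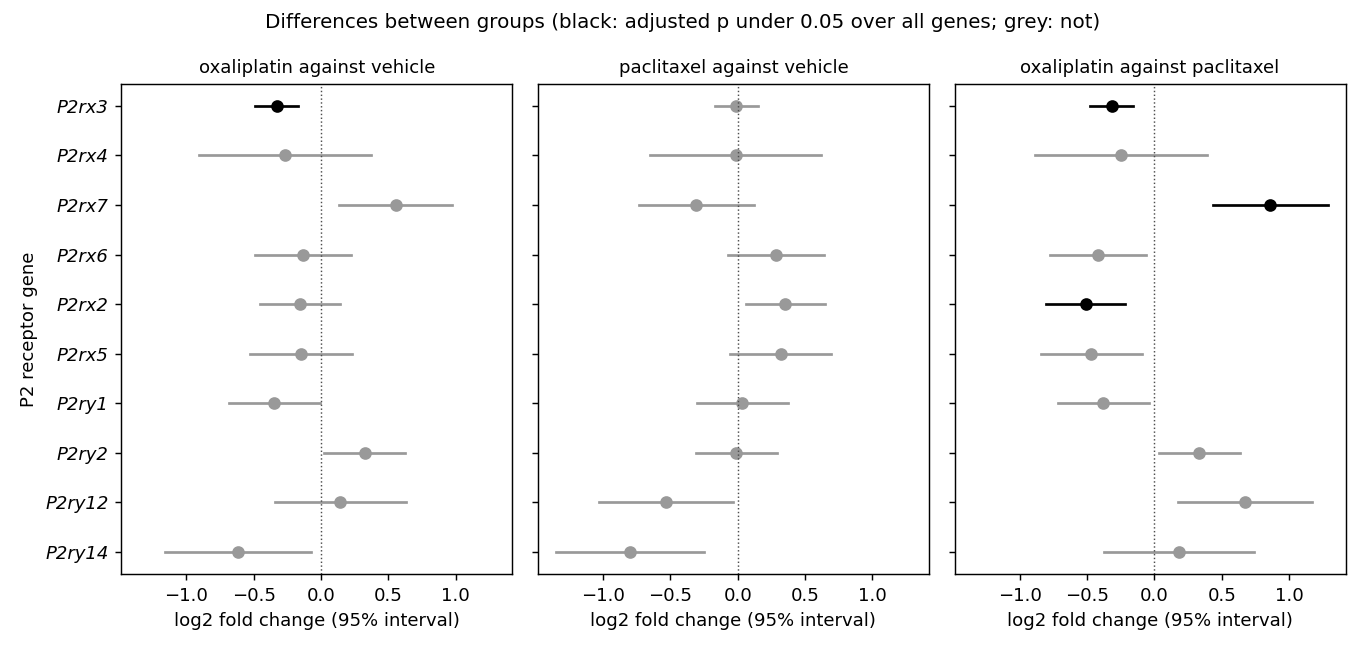
Log2 fold change of each P2 receptor gene with its 95% interval from edgeR, in oxaliplatin against vehicle, paclitaxel against vehicle and oxaliplatin against paclitaxel. Black marks an adjusted p under 0.05 over all genes, which P2rx3 reached at -0.33 against vehicle and -0.32 against paclitaxel, P2rx7 at 0.86 and P2rx2 at -0.51 against paclitaxel.

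P2rx3 encodes the P2X3 subunit, the target of antagonists developed against cough and pain. It had 676, 624, 679 and 626 CPM in oxaliplatin libraries, 766, 826, 826 and 829 in paclitaxel libraries, and 809, 748, 855 and 858 in vehicle libraries. All 4 oxaliplatin libraries lay below all 8 of the others, and the paclitaxel and vehicle ranges overlapped. P2rx3 fell with oxaliplatin by 0.33 ± 0.07 on the log2 scale (SE), to 0.796 of the vehicle level (95% interval of the log2 fold change -0.49 to -0.17, edgeR adjusted p = 0.0413). It ranked 215 among all genes by p in that comparison. Against paclitaxel it was also lower, by a log2 fold change of -0.32 ± 0.07 (adjusted p = 0.0191, edgeR), at 0.802 of the paclitaxel level. With paclitaxel against vehicle the log2 fold change was -0.01 ± 0.07 (edgeR adjusted p = 0.946), with a 95% interval of -0.17 to 0.15.

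The call of P2rx3 against vehicle lay near the threshold. When each of the 12 libraries was left out in turn, the log2 fold change stayed between -0.37 and -0.30 and the edgeR adjusted p ran from 0.0339 to 0.143. It stayed under 0.05 without paclitaxel 1 or paclitaxel 4, and passed 0.05 without any one of the other 10, among them without vehicle 4 (0.143), vehicle 1 (0.0938) and oxaliplatin 2 (0.0914). Between the drugs, the P2rx3 call held in 9 of the 12 fits with 1 library left out. There the log2 fold change ran from -0.35 to -0.30 and the edgeR adjusted p from 0.0158 to 0.0606.

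Since P2rx3 is a neuronal gene, its level was set beside that of 16 general neuron markers. These moved in opposite directions with the drugs. Of the 16, 15 had a lower point estimate in oxaliplatin than in vehicle (median log2 fold change -0.15) and 15 a higher one in paclitaxel than in vehicle (median 0.27), and edgeR called 7 of 16 lower in oxaliplatin than in paclitaxel. P2rx3 in log2 CPM minus the mean of these markers was 0.81 ± 0.17 in oxaliplatin, 0.76 ± 0.14 in paclitaxel and 0.98 ± 0.05 in vehicle libraries (SD, n = 4 each). All 4 paclitaxel libraries (0.576 to 0.915) lay below all 4 vehicle libraries (0.919 to 1.03), with a difference of -0.22, at the smallest p that 4 against 4 allows in an exact two-sided permutation test (p = 0.0286, adjusted over the 3 comparisons 0.0857). The difference was -0.17 in oxaliplatin against vehicle (exact permutation p = 0.0857, adjusted 0.129) and 0.05 in oxaliplatin against paclitaxel (exact permutation p = 0.657, adjusted 0.657).

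Oxaliplatin 4 had a neuron marker mean of 8.72 log2 CPM, inside the vehicle range of 8.63 to 8.80, and a P2rx3 level of 9.29 log2 CPM, below the vehicle range of 9.55 to 9.75. The other 3 oxaliplatin libraries were below the vehicle range in both. With the neuron marker mean of each library as a covariate in edgeR, P2rx3 in oxaliplatin against vehicle was -0.34 (adjusted p = 0.0276), and in oxaliplatin against paclitaxel -0.34 (adjusted p = 0.251). In oxaliplatin against vehicle that fit also called far more of all genes than the fit without the covariate, as given in the closing section. Only oxaliplatin 4 lay inside the vehicle range of the marker mean, so there the fit separates the marker mean from the drug only weakly. Relative to its vehicle mean, the marker mean was -0.24 to 0.03 in oxaliplatin and 0.08 to 0.31 in paclitaxel libraries. As these ranges do not overlap, a fit with this covariate cannot separate the marker mean from the drug between the drugs. Set against 16 markers of non-peptidergic nociceptors, the neurons that carry most P2rx3, the difference was -0.20 in oxaliplatin against vehicle (exact permutation p = 0.0571, adjusted 0.0857) and -0.01 in paclitaxel against vehicle (exact permutation p = 0.857, adjusted 0.857).

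**Figure D3:**
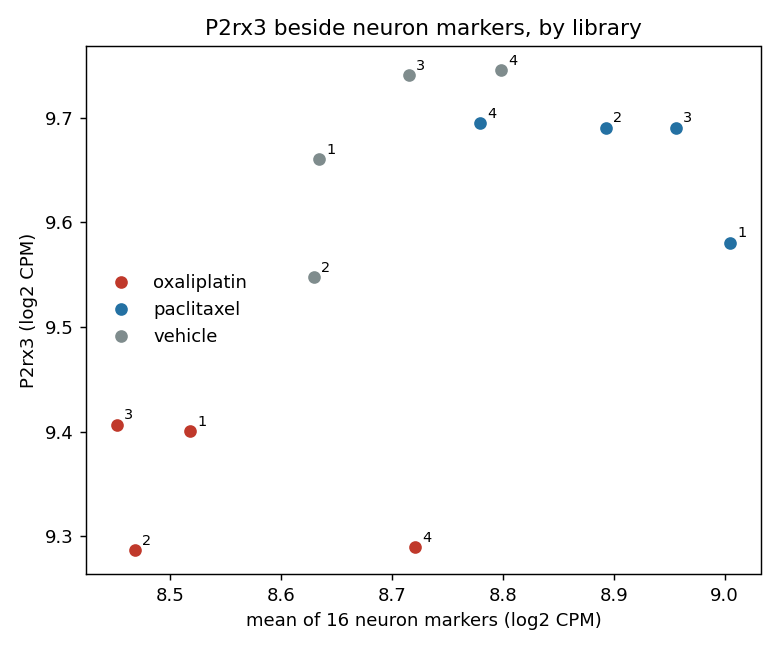
P2rx3 (log2 CPM) against the mean log2 CPM of 16 neuron markers, 1 point per library with its replicate number, coloured by group. The 4 oxaliplatin libraries lie at 9.29 to 9.41 on the P2rx3 axis, below the paclitaxel libraries (9.58 to 9.69) and the vehicle libraries (9.55 to 9.75), while the paclitaxel libraries reach furthest on the marker axis (8.78 to 9.005).

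P2rx2 encodes a subunit that opens with ATP on its own and, joined to P2X3, gives a slowly desensitising channel. It had 8.55, 7.58, 8.64 and 9.61 CPM in oxaliplatin libraries, 15.2, 12.7, 10.8 and 10.3 in paclitaxel libraries and 8.38, 10.2, 9.16 and 10.6 in vehicle libraries. Every oxaliplatin value lay below every paclitaxel value, while the vehicle values overlapped both, and in FPKM the oxaliplatin and paclitaxel ranges overlapped (4.46 to 5.67 and 5.65 to 8.11). P2rx2 was lower in oxaliplatin than in paclitaxel by a log2 fold change of -0.51 ± 0.14 (edgeR adjusted p = 0.0318), at 0.702 of the paclitaxel level. Against vehicle the log2 fold change was -0.16 ± 0.14 with oxaliplatin (edgeR adjusted p = 0.610) and 0.35 ± 0.14 with paclitaxel (adjusted p = 0.249, edgeR). The call between the drugs ended without paclitaxel 1, 2 or 3 or oxaliplatin 1, 2 or 3 (edgeR adjusted p 0.0526 to 0.0913) and in limma on log2(FPKM + 1) (adjusted p = 0.0628). With the neuron marker mean as a covariate the edgeR log2 fold change was -0.06 (adjusted p = 0.928), in a fit that cannot separate the marker mean from the drug.

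As a share of P2rx3, per length, P2rx2 stood at 2.84% ± 0.326 in oxaliplatin, 3.23% ± 0.764 in paclitaxel and 2.51% ± 0.323 in vehicle libraries (SD, n = 4 each). The ranges overlapped between all 3 groups, from 2.65% to 3.33% in oxaliplatin, 2.59% to 4.28% in paclitaxel and 2.22% to 2.91% in vehicle.

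P2rx5, an ATP-gated channel subunit found in sensory neurons, and P2rx6, which forms channels mainly in heteromers with P2X2 or P2X4, had the same order of group means as P2rx2 and no call. P2rx5 ran from 8.87 to 13.97 CPM in oxaliplatin, from 10.9 to 19.4 in paclitaxel and from 12.3 to 13.3 in vehicle libraries. P2rx6 ran from 18.5 to 25.5 CPM in oxaliplatin, from 18.9 to 35.2 in paclitaxel and from 22.0 to 27.3 in vehicle libraries. In both genes paclitaxel 4 was the lowest paclitaxel library, below the vehicle range, and the other 3 paclitaxel libraries were above it. Between the drugs the log2 fold change was -0.47 ± 0.18 for P2rx5 (edgeR adjusted p = 0.0961) and -0.42 ± 0.17 for P2rx6 (edgeR adjusted p = 0.114). Without paclitaxel 4 these were -0.61 (adjusted p = 0.0135) and -0.59 (adjusted p = 0.00503), and P2rx6 in paclitaxel against vehicle was then 0.46 (edgeR adjusted p = 0.0309), against 0.29 (adjusted p = 0.367) with all libraries.

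For P2rx2, P2rx5 and P2rx6, subtracting the neuron marker mean from each library's log2 CPM narrowed the spread over the 12 libraries. The SD fell to 0.14 for P2rx2, against 0.27 without the subtraction, to 0.21 for P2rx5, against 0.32, and to 0.20 for P2rx6, against 0.30. For P2rx3 the SD was 0.15 after subtracting the neuron markers, 0.13 after subtracting the non-peptidergic markers, and 0.17 without either. These are descriptions over 12 libraries that share the group differences.

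P2rx7 encodes the channel that opens at high ATP and, in macrophages, triggers the NLRP3 inflammasome. It had 40.1, 42.7, 47.0 and 41.3 CPM in oxaliplatin libraries, 21.5, 19.1, 19.2 and 34.3 in paclitaxel libraries and 39.2, 29.3, 27.1 and 21.0 in vehicle libraries. All 4 oxaliplatin libraries were above all 8 of the others, with vehicle 1 (39.2) just under the lowest of them, and paclitaxel 4 stood apart from the other 3 paclitaxel libraries. P2rx7 was higher in oxaliplatin than in paclitaxel, 1.82-fold, with a log2 fold change of 0.86 ± 0.20 (edgeR adjusted p = 0.0185). In oxaliplatin against vehicle the log2 fold change was 0.55 ± 0.20 (edgeR adjusted p = 0.168), with a 95% interval of 0.13 to 0.98. In paclitaxel against vehicle it was -0.31 ± 0.20 (edgeR adjusted p = 0.407).

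Paclitaxel 4 weighed on these values. Without it, P2rx7 was 1.10 on the log2 scale in oxaliplatin against paclitaxel (edgeR adjusted p = 0.00258) and -0.55 in paclitaxel against vehicle (edgeR adjusted p = 0.0490). Without paclitaxel 1, 2 or 3 or oxaliplatin 3, the call between the drugs ended, at 0.77 to 0.82 and an edgeR adjusted p of 0.0557 to 0.0629.

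Between the drugs, several cell type markers moved with P2rx7. In oxaliplatin against paclitaxel, 21 of 21 macrophage markers, 12 of 12 endothelial markers and 12 of 12 fibroblast markers had higher point estimates (medians 0.65, 0.47 and 0.81), and edgeR called 7, 5 and 8 of them. So had 13 of 13 erythroid markers (median 2.31, 11 called), 9 of 10 B cell markers (median 2.51, 8 called), 8 of 8 adipocyte markers (median 2.28, 7 called), 13 of 13 neutrophil markers (median 0.94, 1 called) and 10 of 10 markers of smooth muscle and pericytes (median 0.45, 2 called). So too had 13 of 15 satellite glia (median 0.09, 0 called) and 11 of 12 Schwann cell markers (median 0.27, 0 called). In oxaliplatin against vehicle, 14 of 21 macrophage (median -0.15) and 12 of 13 neutrophil markers (median -0.37) had lower point estimates. There 11 of 12 endothelial (median 0.36), 11 of 12 fibroblast (median 0.24) and 13 of 13 erythroid markers (median 1.29) had higher ones. Summed endothelial CPM was 333 to 383 in oxaliplatin, 236 to 271 in paclitaxel and 232 to 358 in vehicle libraries, and summed fibroblast CPM 3630 to 4546, 2190 to 2779 and 2782 to 4046 in the same order. None of these markers was at 0 in all libraries. With the macrophage marker mean as a covariate P2rx7 was 0.64 between the drugs (edgeR adjusted p = 0.507), and with the neuron marker mean 0.16 (edgeR adjusted p = 0.8289). Neither marker mean overlapped between the drugs, so these fits cannot separate it from the drug. The part of the endothelial, fibroblast, erythroid, B cell, adipocyte, neutrophil, smooth muscle, satellite glia and Schwann cell markers in the result was not tested. The SD of P2rx7 over the 12 libraries was 0.49 in log2 CPM, and 0.31 after subtracting the endothelial, 0.38 the fibroblast, 0.41 the satellite glia and 0.46 the macrophage score.

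P2rx4, an ATP-gated channel of macrophages, glia and neurons that lies next to P2rx7 in the RefSeq annotation with no protein-coding gene between them, did not follow it. It ran from 21.9 to 44.2 CPM in oxaliplatin, from 23.8 to 59.8 in paclitaxel and from 29.8 to 44.5 in vehicle libraries, so the 3 ranges overlapped widely. The log2 fold change was -0.27 ± 0.29 in oxaliplatin against vehicle (edgeR adjusted p = 0.695), -0.02 ± 0.29 in paclitaxel against vehicle (adjusted p = 0.981, edgeR) and -0.25 ± 0.29 between the drugs (edgeR adjusted p = 0.610). The 95% interval in paclitaxel against vehicle, -0.65 to 0.62, leaves room for a change of either sign. Its SD over the 12 libraries was 0.44 in log2 CPM and lay between 0.45 and 0.68 after subtracting any of 7 cell type scores. Per length, P2rx7 stood at 49.9% to 105% of P2rx4 in oxaliplatin, 17.6% to 80.3% in paclitaxel and 26.9% to 73.1% in vehicle libraries.

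P2ry1 and P2ry2 couple to Gq and raise intracellular calcium, P2ry1 for ADP and P2ry2 for ATP and UTP. P2ry1 ran from 21.5 to 36.3 CPM in oxaliplatin, from 36.3 to 45.9 in paclitaxel and from 31.3 to 45.5 in vehicle libraries, with oxaliplatin 1 the lowest of all. Its log2 fold change was -0.35 ± 0.16 in oxaliplatin against vehicle (edgeR adjusted p = 0.277) and -0.38 ± 0.16 in oxaliplatin against paclitaxel (edgeR adjusted p = 0.125). In paclitaxel against vehicle it was 0.04 ± 0.16 (edgeR adjusted p = 0.913), and -0.0042 in limma on log2(FPKM + 1).

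P2ry2 ran from 18.9 to 28.1 CPM in oxaliplatin, from 16.7 to 19.9 in paclitaxel and from 14.02 to 21.5 in vehicle libraries. Its log2 fold change was 0.32 ± 0.14 in oxaliplatin against vehicle (edgeR adjusted p = 0.251), 0.33 ± 0.14 in oxaliplatin against paclitaxel (edgeR adjusted p = 0.130) and -0.01 ± 0.14 in paclitaxel against vehicle (edgeR adjusted p = 0.973). Across the 12 libraries P2ry2 ran with Schwann cell markers. Its SD in log2 CPM was 0.25, and 0.11 after subtracting the mean of 12 Schwann cell markers. The 3 genes whose centred log2 CPM lay nearest to it were Fa2h, Cldn19 and Prx, all myelin genes on that list, at root mean square differences of 0.08, 0.09 and 0.11 over 12 libraries, against 0.24 for P2ry2 around its own mean. Of the 12 Schwann cell markers, 12 had a higher point estimate in oxaliplatin than in vehicle (median 0.16) and edgeR called none, with a summed CPM of 14601 to 24339 in oxaliplatin, 14993 to 16399 in paclitaxel and 11928 to 20028 in vehicle libraries.

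P2ry12 and P2ry14 couple to Gi, P2ry12 for ADP, as on platelets and microglia, and P2ry14 for UDP-glucose. They were the members with the lowest levels. P2ry12 ran from 3.88 to 6.89 CPM in oxaliplatin, from 2.60 to 4.76 in paclitaxel and from 4.30 to 6.61 in vehicle libraries. The log2 fold change was 0.14 ± 0.23 in oxaliplatin against vehicle (edgeR adjusted p = 0.798), -0.53 ± 0.23 in paclitaxel against vehicle (edgeR adjusted p = 0.273) and 0.68 ± 0.23 between the drugs (edgeR adjusted p = 0.0731). Without paclitaxel 4 the difference between the drugs was 0.86 (edgeR adjusted p = 0.0204), and without oxaliplatin 4 it was 0.81 (edgeR adjusted p = 0.0339). Its SD over the 12 libraries was 0.43. It was 0.30 after subtracting the macrophage score and 0.31 after the satellite glia score, the lowest values among 7 cell type scores for this gene.

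P2ry14 ran from 2.54 to 2.93 CPM in oxaliplatin, from 1.63 to 3.08 in paclitaxel and from 2.24 to 5.61 in vehicle libraries. Of the vehicle libraries, 3 lay between 4.06 and 5.61 CPM, above every treated library, and vehicle 4 lay at 2.24. Its log2 fold change was -0.62 ± 0.25 in oxaliplatin against vehicle (edgeR adjusted p = 0.233) and -0.80 ± 0.26 in paclitaxel against vehicle (edgeR adjusted p = 0.215), the largest point estimates of the 10 genes in both. Between the drugs it was 0.18 ± 0.26 (edgeR adjusted p = 0.679). Without paclitaxel 4, P2ry14 in paclitaxel against vehicle was -0.96 (edgeR adjusted p = 0.0439). For P2ry12 and P2ry14 the gene length behind the FPKM differed between libraries, from 1705 to 2507 bases for P2ry12 and from 2002 to 2748 bases for P2ry14, so FPKM and CPM need not rank the libraries alike. In FPKM, though not in CPM, every oxaliplatin value of P2ry14 (1.14 to 1.29) lay above every paclitaxel value (0.77 to 1.13).

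**Figure D4:**
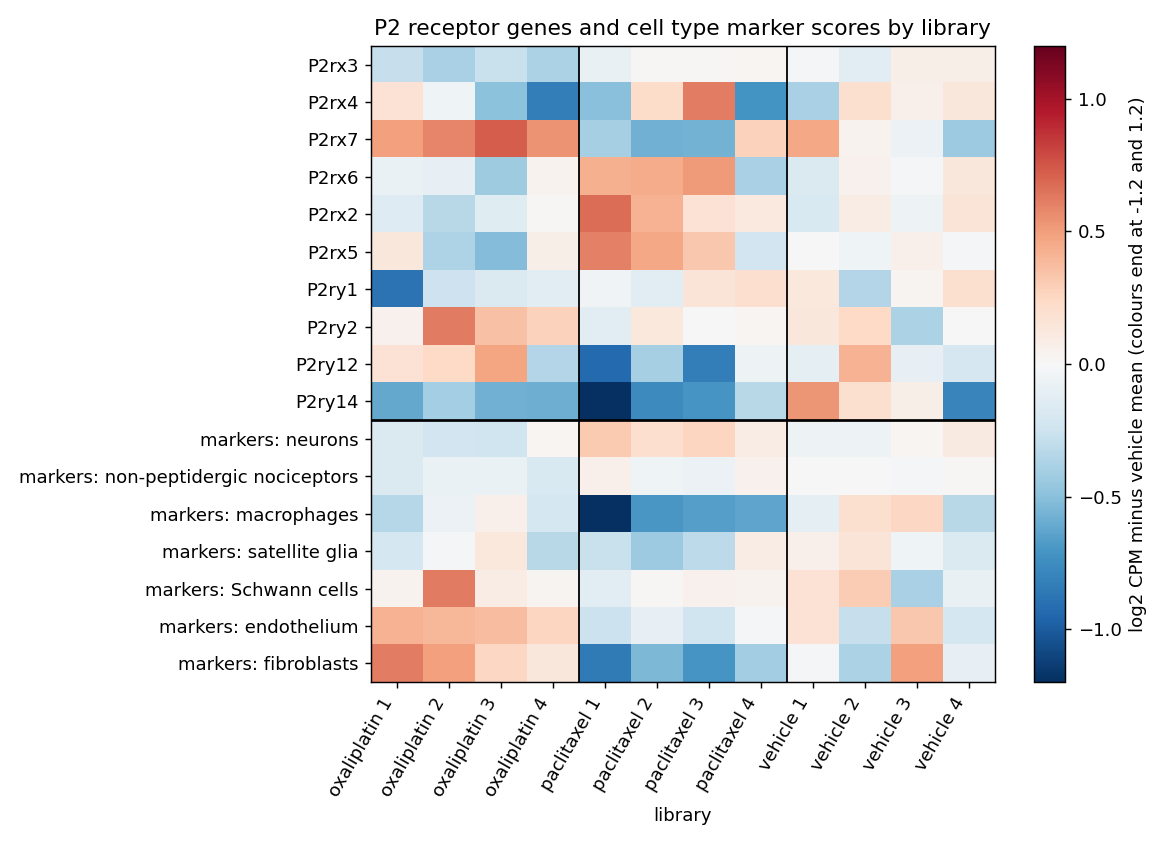
Log2 CPM of the 10 P2 receptor genes (top) and the mean log2 CPM of 7 cell type marker lists (bottom) in each library, each minus its vehicle mean, with libraries in columns (oxaliplatin, paclitaxel, vehicle). Colours end at -1.2 and 1.2. P2rx3 is blue in all 4 oxaliplatin libraries (-0.39 to -0.27), and the macrophage score lies between -1.42 and -0.63 in the paclitaxel libraries.

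The genes with patterns nearest to P2rx3 were Elovl4 (root mean square difference 0.06), Fam19a4 (0.07) and Vstm2a (0.07), against 0.16 for P2rx3 around its own mean over the 12 libraries. Nearest to P2rx7 were Tnfrsf25 (0.18), Rreb1 (0.18) and Arhgef5 (0.19), against its own 0.46. Nearest to P2rx2 were Stac (0.10), LOC103692792 (0.11) and Jakmip1 (0.11), against its own 0.26. P2rx4 had no close partner, with its nearest genes Tctn1, Cnpy1 and Wif1 at 0.25, 0.27 and 0.29 against its own 0.42.

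The rest of the purinergic system was followed in 7 lists of 78 gene symbols, from the other nucleotide receptors to ATP release, breakdown of nucleotides and signalling, of which 71 were tested. In oxaliplatin against vehicle 1 of the 71 was called in edgeR, as higher, beside 1.05% of all genes called higher and 1.76% in either direction. In paclitaxel against vehicle edgeR called 0, with 22 of the 71 at an unadjusted p under 0.05, beside 17.1% of all genes, while DESeq2 called 3, limma on log2(FPKM + 1) 1 and voom with quality weights 15. Without paclitaxel 4, edgeR called 8 of them higher and 9 lower. Between the drugs edgeR called 15 of the 71 higher and 5 lower in oxaliplatin, beside 6.60% and 4.71% of all genes (11.3% in either direction), with a median of 0.11 over the 71, beside 0.00 over all genes. Leaving out 1 library gave 4 (without paclitaxel 3) to 21 (without paclitaxel 4) called higher and 1 to 10 called lower.

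Among the other P2 and related receptors, P2ry4, a P2Y receptor, rose with oxaliplatin. It had 4.33, 4.25, 4.24 and 5.17 CPM in oxaliplatin libraries, 3.27, 4.63, 4.26 and 4.47 in paclitaxel libraries and 2.83, 2.81, 2.63 and 3.04 in vehicle libraries. All 8 treated libraries were above all 4 vehicle libraries. The log2 fold change was 0.67 ± 0.16 with oxaliplatin (edgeR adjusted p = 0.0490) and 0.56 ± 0.16 with paclitaxel (edgeR adjusted p = 0.203). The oxaliplatin call lay at the threshold and ended with no filter on low counts (edgeR adjusted p = 0.0669), in a fit of the 2 groups only (0.0700), with the replicate number as a block (0.0872) and without any one of the libraries other than paclitaxel 1 and 4 (edgeR adjusted p 0.0702 to 0.119).

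P2ry6, a UDP receptor of macrophages and microglia, was higher in oxaliplatin (3.45 to 4.62 CPM) than in paclitaxel (1.94 to 2.82 CPM), with a log2 fold change of 0.79 ± 0.23 (edgeR adjusted p = 0.0449), and overlapped vehicle (2.75 to 5.96 CPM). With the macrophage marker mean as a covariate it was 0.29 (edgeR adjusted p = 0.800), in a fit that cannot separate the marker mean from the drug. The call ended with no filter on low counts (edgeR adjusted p = 0.0513), with the replicate number as a block (0.0641) and without any one of vehicle 1 or 3, paclitaxel 1, 2 or 3 or the 4 oxaliplatin libraries (edgeR adjusted p 0.0531 to 0.120). P2ry13, an ADP receptor named after its values were seen because it lies beside P2ry12 in the RefSeq annotation, had 1.49 to 2.49 CPM in oxaliplatin, 0.726 to 1.30 in paclitaxel and 1.72 to 3.72 in vehicle libraries. Its log2 fold change was -1.35 ± 0.27 in paclitaxel against vehicle (edgeR adjusted p = 0.0975). It was called there in DESeq2 (adjusted p = 0.00641), in limma on both FPKM scales (0.0218 and 0.0248), in voom with quality weights (0.0199) and in edgeR without paclitaxel 4 (0.0272) or vehicle 4 (0.0417). With the macrophage marker mean as a covariate it was -0.49 (edgeR adjusted p = 0.99968). That marker mean did not overlap between paclitaxel and vehicle libraries, so the fit cannot separate it from the drug. Of the 3 adenosine receptors tested, Adora2a and Adora1, receptors that raise and lower cAMP, had the smallest p, at log2 fold changes of 0.25 (edgeR adjusted p = 0.236) and 0.29 (edgeR adjusted p = 0.284) in paclitaxel against vehicle.

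Of 10 ATP release genes edgeR called 2 higher and 1 lower in oxaliplatin than in paclitaxel, and of 13 ectonucleotidases 2 higher and 2 lower, beside 6.60% and 4.71% of all genes. Among the release genes, Calhm2, of a family of large-pore channels, and Gja1, the connexin of satellite glia, were higher, with log2 fold changes of 0.74 (edgeR adjusted p = 0.0129) and 0.54 (edgeR adjusted p = 0.0382), and the pannexin Panx2 was lower at -0.57 (edgeR adjusted p = 0.0496). Among the ectonucleotidases, Entpd4, an enzyme of internal membranes, and Entpd3, a neuronal surface enzyme, were lower at -0.40 (edgeR adjusted p = 0.0184) and -0.38 (edgeR adjusted p = 0.0433). Enpp3, an ectonucleotide pyrophosphatase, was higher at 0.68 (edgeR adjusted p = 0.0349), and so was Entpd2, of glia, at 0.38 (edgeR adjusted p = 0.0466), which is uncertain for shared reads. Of 7 genes of nucleoside transport and metabolism, Adk, adenosine kinase, was lower at -0.34 (edgeR adjusted p = 0.0145). All 16 neuron markers had lower point estimates in oxaliplatin than in paclitaxel (median -0.38, 7 called in edgeR). The neuron marker mean did not overlap between the drugs, so a fit with it as a covariate cannot separate it from the drug. Few of all genes were called in that fit, as given in the closing section. In it none of these 8 calls held in edgeR, and the sign turned for Panx2 (0.29, adjusted p = 0.595), Entpd3 (0.14, adjusted p = 0.685) and Gja1 (-0.14, adjusted p = 0.782). Entpd4 was then -0.096 (edgeR adjusted p = 0.798) and Adk -0.34 (edgeR adjusted p = 0.267). The Panx2 call also ended with no filter on low counts (edgeR adjusted p = 0.0570), in a fit of the 2 groups only (0.0689), with the replicate block (0.102), in limma on log2(FPKM + 1) (0.109) and without any one library other than vehicle 2 or paclitaxel 4 (edgeR adjusted p up to 0.139). In the fit of the 2 groups and with the block, 4 further calls ended. These were Gja1 (edgeR adjusted p 0.0580 and 0.0859), Entpd3 (0.0666 and 0.0695), Enpp3 (0.0558 and 0.0755) and Entpd2 (0.0533 and 0.0557). The Entpd2 call also ended with no filter (edgeR adjusted p = 0.0547) and the Entpd3 call in limma on log2(FPKM + 1) (adjusted p = 0.0993). Of the other 7, Calhm2 and Adk kept the call without any one library, while each of the rest lost it without any one of at least paclitaxel 2 and 3 and oxaliplatin 2 and 3.

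Below the receptors, edgeR called 4 of 18 genes of Gq and Gi signalling higher in oxaliplatin than in paclitaxel and 0 lower, beside 6.60% and 4.71% of all genes. Point estimates were higher for 9 of the 18 and lower for 9, with a median of -0.0038. The inositol trisphosphate receptors Itpr2, Itpr3 and Itpr1, the calcium channels that Gq-coupled receptors open, stood at log2 fold changes of 0.55, 0.42 and 0.47 (edgeR adjusted p = 0.0253, 0.0286 and 0.0416), and Plcb4, uncertain for shared reads, at 0.38 (adjusted p = 0.0466). Each of these 4 calls ended without any one of at least paclitaxel 1 and 3 and oxaliplatin 3 (edgeR adjusted p up to 0.148). With the replicate block the calls of Itpr3 (edgeR adjusted p = 0.0617), Itpr1 (0.0809) and Plcb4 (0.0552) ended. With no filter on low counts those of Itpr1 (0.0538) and Plcb4 (0.0588) ended, and that of Plcb4 also in the fit of the 2 groups (0.0923). A list of 12 genes tied to P2X7 and P2X4 took in genes that may act above or below these receptors. Of the 12, edgeR called 6 higher and 1 lower, beside the same 6.60% and 4.71% of all genes, with a median of 0.64. By smallest p these were Gsdmd, the pore protein of pyroptosis, at 0.59 (edgeR adjusted p = 0.00807), the transcription factor Irf5 at 0.68 (0.0111), Pycard, the inflammasome adaptor, at 1.12 (0.0153) and Pla2g4a, a cytosolic phospholipase A2, at 1.51 (0.0166). The Pycard and Pla2g4a calls ended without paclitaxel 3 (edgeR adjusted p = 0.0546 and 0.0540). Against vehicle, edgeR called 0 of the 12 with either drug. Point estimates against vehicle were lower for 10 of the 12 with paclitaxel (median -0.69) and higher for 8 of the 12 with oxaliplatin (median 0.09). Bdnf, released by microglia after P2X4 activation and also made by sensory neurons, was the 1 called lower between the drugs, at -0.76 (edgeR adjusted p = 0.0221). It was named after its value was seen, for being alone in its direction among the called genes of the list (9 of the 12 had higher and 3 lower point estimates between the drugs). Against vehicle Bdnf was 0.64 with paclitaxel (edgeR adjusted p = 0.203) and -0.12 with oxaliplatin (edgeR adjusted p = 0.800). The Bdnf call ended without any one of paclitaxel 2 or 3 or oxaliplatin 2 or 3 (edgeR adjusted p up to 0.0661). With the neuron marker mean as a covariate Bdnf was -0.34 between the drugs (edgeR adjusted p = 0.652), in a fit that cannot separate the marker mean from the drug. Macrophage markers moved the same way between the drugs as the 6 genes called higher, as given beside P2rx7, and with the macrophage marker mean as a covariate edgeR called 12 genes of all 15809 between the drugs.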

How the data were processed

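RNA from rat dorsal root ganglia was sequenced in 12 libraries, 4 per group, grouped by their titles. Each library had a deposited table of expected counts (estimated counts, which need not be whole) and FPKM per gene, per the file headers. CASAVA 1.4 and Bowtie2 are named, without a role, in the submitters' processing notes. The quantification tool and the genome build are not given in the sources used here. In the authors' tables the lowest FPKM listed was 0.01, and genes without a row were set to 0. Between 30.3% and 31.5% of the counts were not whole. Receptors and named genes of the purinergic lists with such counts in over 6 libraries are marked uncertain, which none of the 10 receptors was. Some cell type markers met the same rule, among them Tubb3 and Snap25 of neurons and Cx3cr1 and Lyz2 of macrophages. They were kept, unmarked, in the marker counts, scores and covariates.

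After rounding, edgeR 4.0.16 (R 4.3.3) was fitted to the estimated counts (default expression filter, TMM, robust quasi-likelihood fit of 3 group means over 12 libraries, two-sided, Benjamini-Hochberg over 15809 genes, called at an adjusted p under 0.05). The common dispersion had a square root of 0.159, with 9 residual degrees of freedom, and the precision is that of 4 libraries per group. CPM used TMM-scaled library sizes, and log2 CPM a prior count of 2. Of the genes, 18549 (92.0%) had their ID in the RefSeq table of GRCr8, which was used for names and neighbours. RefSeq promoter windows matched 7 of the 10 receptors. No pair of libraries of the same group agreed within sampling noise (chi-square per gene 8.07 to 44.9).

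The P2rx3 level relative to neuron markers was tested by an exact permutation over libraries. The members and lists were chosen with earlier results of these data known. All 10 receptors are named, and of each purinergic list up to 4 called genes by smallest p, otherwise the 2 with the smallest p. For the nearest patterns, the 3 genes of smallest root mean square difference were taken among those averaging 1 log2 CPM or more. Alternatives were DESeq2 1.42.0, RLE factors, no filter, limma 3.58.1 on log2(FPKM + 1) and log2(FPKM + 0.1), voom with quality weights, a fit of 2 groups, a replicate block, a neuron or a macrophage marker covariate, and each library left out. The code was tested on simulated counts.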

Additional observations from a re-analysis of the deposited data

Results flagged for a closer look

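In 5 of 33 gene and group sets of 4 libraries, 1 library lay far from the other 3 by Dixon's test at 95%, where chance flags about 1 in 20. Paclitaxel 4 was in 2 of them, at 18.9 CPM for P2rx6 against 33.3 to 35.2 in the other paclitaxel libraries, and at 34.3 CPM for P2rx7 against 19.1 to 21.5. P2rx3 in paclitaxel 1 was at 766 CPM, against 826 to 829 in the other 3. P2ry12 in vehicle 2 was at 6.61 CPM, against 4.30 to 4.63 in the other vehicle libraries. P2ry14 in oxaliplatin 2 was at 2.93 CPM, against 2.54 to 2.60 in the other oxaliplatin libraries.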

How the results depend on the processing

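Counts of called receptors and genes depended on the tool and on single libraries. For paclitaxel against vehicle (0 receptors, 19 genes), voom with quality weights called 3 receptors (P2rx2 and P2rx6 higher, P2ry14 lower) and 2017 genes, DESeq2 called 245 genes, the neuron covariate 6 and the macrophage covariate 7, and leaving out 1 library gave 0 to 3 receptors and 10 to 1631 genes, the highest without paclitaxel 4. For oxaliplatin against vehicle (1 receptor, 278 genes), no filter on low counts, limma on log2(FPKM + 1) and log2(FPKM + 0.1), and a fit of the 2 groups only called 0 receptors (P2rx3 adjusted p 0.0571, 0.0646, 0.0697 and 0.0803, with 5, 4, 4 and 4 receptors at an unadjusted p under 0.05), and the neuron covariate 2 (P2rx3 and P2ry14). DESeq2 called 873 genes, voom 599, the fit of 2 groups 161 and the neuron covariate 1140, and leaving out 1 library gave 0 to 1 receptor and 49 to 357 genes. For oxaliplatin against paclitaxel (3 receptors, 1788 genes), both FPKM scales called 1 receptor, voom 6, and the neuron and the macrophage covariate 0 each (1 each at an unadjusted p under 0.05), with 2779 genes in DESeq2, 4726 in voom, 1016 in the fit of 2 groups, 13 with the neuron and 12 with the macrophage covariate. Leaving out 1 library gave 0 to 6 receptors (0 without paclitaxel 2 or 3, 6 without paclitaxel 4) and 571 to 3463 genes. The split of higher and lower calls was 1044 and 744 in edgeR but 1507 and 277 with FPKM and a pseudocount of 1, and 1456 and 263 with a pseudocount of 0.1. Against vehicle oxaliplatin gave 166 and 112 in edgeR, and 256 and 74 or 194 and 61 with FPKM. Apart from the counts and folds where a covariate or fewer libraries entered by construction, the cause was not tested.

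Signs turned for receptors without a call, and with the neuron covariate for Panx2, Entpd3 and Gja1, which edgeR had called between the drugs. In paclitaxel against vehicle, P2ry1 was -0.0042 and -0.0039 on the FPKM scales, -0.036 in voom and -0.043 with the neuron covariate, and P2rx4 was 0.25 and P2ry2 0.048 in voom. With the neuron covariate P2ry2 was 0.17, P2rx3 0.0019, P2rx5 -0.10, P2rx6 -0.13, P2rx7 0.11 and P2ry12 0.098. With the macrophage covariate P2rx4 was 0.28, P2ry2 0.14, P2rx3 0.028, P2rx5 -0.14, P2ry12 0.097 and P2rx2 -0.0079. In oxaliplatin against vehicle, the neuron covariate gave P2rx2 0.031, P2rx5 0.13, P2rx6 0.15 and P2ry12 -0.35. Between the drugs it gave P2rx5 0.23, P2rx6 0.29, P2ry12 -0.45 and P2ry14 -0.68, and the macrophage covariate P2ry14 -0.38. Leaving out 1 library gave ranges across 0 in paclitaxel against vehicle for P2rx3 (-0.051 to 0.016), P2rx4 (-0.29 to 0.16), P2ry1 (-0.068 to 0.099) and P2ry2 (-0.12 to 0.070), and between the drugs for P2rx4 (-0.43 to 0.029). P2rx3 relative to neuron markers, oxaliplatin against paclitaxel (0.05), was -0.19 with non-peptidergic markers, -0.013 with the median over markers and -0.0097 to 0.13 with 1 library left out. With CPM in place of FPKM, 3 of the 10 receptors kept their place in the order of levels in each group.

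The labels do not say whether replicate numbers pair the samples. Deviations of same-numbered libraries correlated at -0.23 to 0.16, and were not compared with those of differently numbered libraries, so they cannot decide it. With a replicate block, edgeR called 72 genes and 0 receptors in oxaliplatin against vehicle (P2rx3 -0.33, adjusted p = 0.0910, with 4 receptors at an unadjusted p under 0.05) and 986 genes between the drugs, where the P2rx2 call ended (adjusted p = 0.0690). The P2ry4 (0.0872, oxaliplatin against vehicle) and P2ry6 (0.0641, between the drugs) calls ended too, as did those of the other purinergic genes given above. Sign flips within replicate numbers gave an exact p of 0.125, 0.125 and 0.875 for P2rx3 relative to neuron markers in paclitaxel against vehicle, oxaliplatin against vehicle and oxaliplatin against paclitaxel.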
